A study of Mus musculus with 16 samples.

Results

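The genes described here serve the clearance of apoptotic cells and the recruitment of microglia in the embryonic cortex. The 10 genes were chosen by name from 51912 listed genes, and each was found once in the count tables. They comprise 5 engulfment receptors (*Mertk*, *Axl*, *Tyro3*, *Megf10* and *Lrp1*), 2 bridging ligands (*Gas6* and *Pros1*) and 3 microglial growth or attraction signals (*Cx3cl1*, *Csf1* and *Il34*). RNA was measured in the E15.5 cerebral cortex of 15 mice by unique molecular identifier (UMI) RNA-seq, in which reads that are copies of a single cDNA molecule are counted once. The 7 ctrl mice were wild type (2, 6, S1, S3 and T3) or heterozygous (T4 and T5) for *Knl1*, labeled by its older name *Casc5*. The 4 cKO mice (5, 7, F3 and S2) carried an *hGFAP-Cre* conditional deletion of *Knl1*. The 4 dKO mice (F1, F7, T2 and T8) carried an *hGFAP-Cre* conditional deletion of both *Knl1* and *Trp53*. All mice were embryos of the same stage, and each group held males and females. The labels do not give the Cre status of ctrl mice. *hGFAP-Cre* acts in cortical neural progenitor cells and their progeny, so microglia, which come from the yolk sac, lie outside the deleted lineage.

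Apoptotic cells are recognized through phosphatidylserine that appears on their surface. GAS6 and PROS1 bind this lipid and bridge it to the TAM receptors MERTK, AXL and TYRO3 on the engulfing cell. MEGF10 and LRP1 are further engulfment receptors, MEGF10 being known from astrocytes and LRP1 from many cell types. CX3CL1 (fractalkine) is made by neurons and binds CX3CR1 on microglia. CSF1 and IL34 both bind CSF1R, on which microglia depend for survival and growth. The comparisons asked whether RNA of these genes differed after loss of *Knl1*, and whether it differed when p53 was lost as well.

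The total count per mouse was 399832 to 3266227 in ctrl, 4178461 to 8800987 in cKO and 552186 to 5396803 in dKO, so that every cKO mouse was deeper than every ctrl mouse. Levels are CPM, counts per 1000000 of a mouse's total after TMM scaling. Values for single mice follow the order 2, 6, S1, S3, T3, T4, T5 for ctrl, the order 5, 7, F3, S2 for cKO and the order F1, F7, T2, T8 for dKO. A level resting on 3 counts or fewer was treated as near the limit of detection, which was 7.50 CPM in the shallowest ctrl mouse and 0.341 CPM in the deepest cKO mouse before TMM scaling. These limits cover counting error only. *Knl1* was at 62.8 ± 13.5 CPM (SD, n = 7) in ctrl, 58.2 ± 14.8 in cKO (n = 4) and 49.8 ± 11.6 in dKO (n = 4). *Trp53* was at 30.5 ± 10.6, 28.3 ± 4.26 and 25.1 ± 5.26 CPM in ctrl, cKO and dKO, and neither gene passed the test in any comparison (edgeR FDR of 1). Counts were per whole gene, and the tissue also held cells outside the deleted lineage. These levels therefore do not measure how far either gene was deleted. The summed level of 13 radial glia markers was 1250 to 1818 CPM in ctrl, 1360 to 1441 in cKO and 1180 to 1398 in dKO. Much of this sum was *Ptprz1*, at a mean of 688 CPM in ctrl and 751 in cKO. Of the 12 radial glia markers at 1 CPM or more, 10 had a negative log2 fold change in cKO versus ctrl (median −0.29). Of all 14328 genes at 1 CPM or more, 7941 were positive and 6387 negative in that comparison. The summed level of 8 excitatory neuron markers was 3798 to 4392, 4071 to 4927 and 3505 to 4272 CPM. Much of that sum was *Sox5*, at a mean of 2346 CPM in ctrl and 2460 in cKO. Of these 8 markers, 7 had a positive log2 fold change in cKO versus ctrl (median 0.12). *Sox2* had no count in any mouse and so could not serve as a marker here. In bulk tissue, fewer cells of a type and less RNA per cell cannot be told apart.

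The 250 bases upstream of the RefSeq start were read for the 8 genes in the promoter table, all except *Megf10* and *Il34*. Those of *Csf1*, the only member with a group (cKO) that did not overlap with another, and *Axl*, the TAM receptor of highest level, are shown 5′ to 3′ on the strand of the gene, with matches to the GC box GGGCGG on either strand in capitals. The *Csf1* window is chr3:107760470-107760719 and the *Axl* window chr7:25788734-25788983, both on the minus strand of GRCm38.p6.
Csf1: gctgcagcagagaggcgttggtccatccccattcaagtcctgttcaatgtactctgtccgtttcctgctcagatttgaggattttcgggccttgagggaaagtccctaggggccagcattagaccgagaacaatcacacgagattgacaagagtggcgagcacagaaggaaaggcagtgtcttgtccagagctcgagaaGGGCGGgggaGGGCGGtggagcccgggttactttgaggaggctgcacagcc
Axl: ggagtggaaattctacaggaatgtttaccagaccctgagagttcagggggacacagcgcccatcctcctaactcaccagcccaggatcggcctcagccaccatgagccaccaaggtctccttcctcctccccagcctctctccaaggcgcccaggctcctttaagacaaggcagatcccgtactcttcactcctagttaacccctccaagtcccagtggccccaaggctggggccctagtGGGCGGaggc
The *Csf1* window held 2 GC boxes and the *Axl* window 1. All 8 windows held a GC box, against 32.7% of the 32851 windows in the table. A TATAAA match on either strand was found in the *Cx3cl1* window only, and in 12.4% of all windows. By the GENCODE positions given below, the *Cx3cl1* window (chr8:94771930-94772179) runs into the gene, and the match is at the window's end. The *Tyro3* window (chr2:119799264-119799513) lies within the gene by those positions. The p53 half-site consensus matched in the window of *Mertk* and of no other member, and in 7.13% of all windows. A match is a description of letters and not a bound site.

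Positions are on GRCm38. The TAM receptor genes are *Mertk* (ENSMUSG00000014361, chr2:128698956-128802894, plus strand), *Axl* (ENSMUSG00000002602, chr7:25757273-25788705, minus strand) and *Tyro3* (ENSMUSG00000027298, chr2:119797733-119818104, plus strand). Their ligand genes are *Gas6* (ENSMUSG00000031451, chr8:13465374-13494490, minus strand) and *Pros1* (ENSMUSG00000022912, chr16:62854307-62929346, plus strand). The other receptor genes are *Megf10* (ENSMUSG00000024593, chr18:57133090-57297467, plus strand) and *Lrp1* (ENSMUSG00000040249, chr10:127538161-127621148, minus strand). The signal genes are *Cx3cl1* (ENSMUSG00000031778, chr8:94772009-94782427, plus strand), *Csf1* (ENSMUSG00000014599, chr3:107741048-107760469, minus strand) and *Il34* (ENSMUSG00000031750, chr8:110741829-110805924, minus strand). Counts are per gene, and the sources used here do not state whether reads within introns were counted.

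The 10 genes spanned a wide range of levels. Scaling by exon length treats the counts as exon reads, which was not tested. Per kilobase of exon, *Lrp1* was highest in ctrl at 15.1 ± 2.42 CPM per kb (SD, n = 7), followed by *Megf10* at 11.5 ± 3.89. *Cx3cl1* followed at 4.44 ± 6.18, with mouse 2 far above the other mice, and *Axl* at 4.12 ± 1.89. The ligands *Gas6* and *Pros1* were at 2.78 ± 1.40 and 1.98 ± 0.848 CPM per kb. *Tyro3* and *Mertk* were at 1.58 ± 0.460 and 1.46 ± 1.03. *Csf1* (0.771 ± 0.358) and *Il34* (0.532 ± 0.648) were lowest. Ranges over ctrl mice overlapped between all neighbors in this order. *Lrp1* lay above *Megf10* in 5 of the 7 ctrl mice, *Megf10* above *Cx3cl1* in 6, and *Cx3cl1* above *Axl* in 1. *Axl* lay above *Gas6* in 5, *Gas6* above *Pros1* in 6, *Pros1* above *Tyro3* in 5 and *Tyro3* above *Mertk* in 4. *Mertk* lay above *Csf1*, and *Csf1* above *Il34*, in 5.

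**Figure D1:**
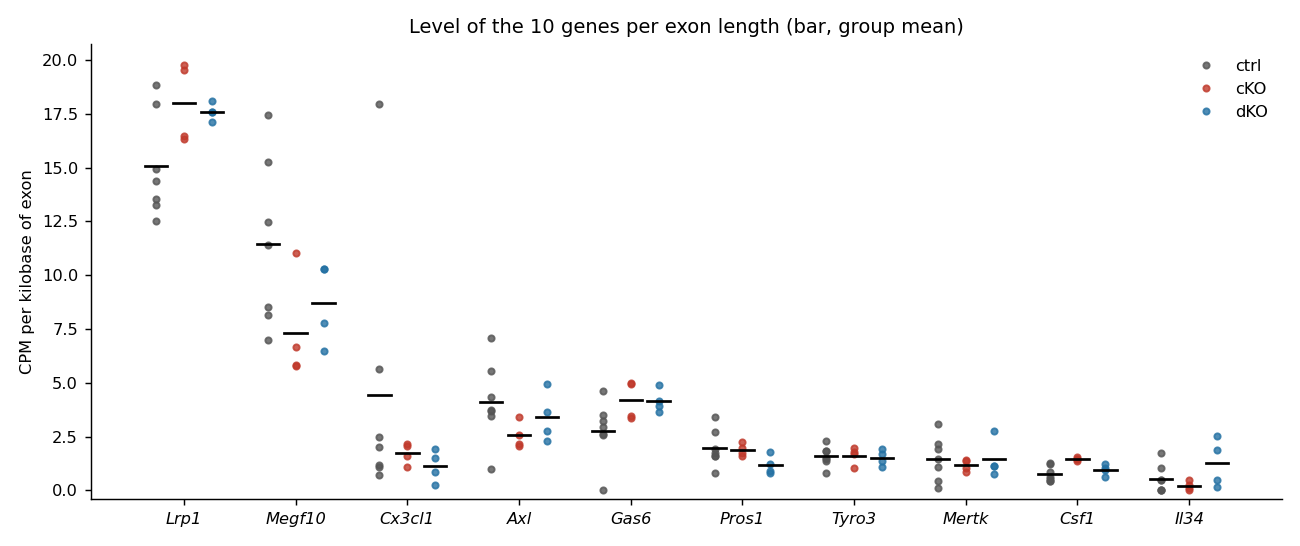
Level of each of the 10 genes in CPM per kilobase of exon (vertical axis), ordered by the ctrl mean, with points for the 7 ctrl, 4 cKO and 4 dKO mice and bars for group means. *Lrp1* and *Megf10* stand at the top and *Csf1* and *Il34* at the bottom, and the raised ctrl point of *Cx3cl1* is mouse 2.

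No member passed FDR < 0.05 in any comparison by edgeR's likelihood ratio test. Over all genes, 83 passed in cKO versus ctrl (0.16%), 26 in dKO versus ctrl (0.0501%) and 27 in cKO versus dKO (0.052%). At an unadjusted threshold of 0.05, 4 of 10 members lay beyond it in cKO versus ctrl, *Csf1* being higher and *Megf10*, *Axl* and *Cx3cl1* lower, against 4.7% of all genes. In dKO versus ctrl *Megf10* and *Cx3cl1* were lower at that threshold, 2 of 10 members against 3.32% of all genes. In cKO versus dKO *Csf1* was higher and *Il34* lower, 2 of 10 against 4.16%, where *Il34* rested on 8 and 13 counts in all and its sign turned with litter as a covariate (0.41). All these shares are over the 51912 listed genes, of which only 27394 had a count in any mouse. Genes without a count cannot pass, so the shares are lower than among genes with counts, as all members are. The median log2 fold change of the members was −0.08, −0.03 and 0.00 in the 3 comparisons. For the 14328 genes with a mean of at least 1 CPM, a level all 10 members reached, it was 0.03, 0.02 and 0.03. The cKO and dKO comparisons share their ctrl mice, so their values are given side by side.

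**Figure D2:**
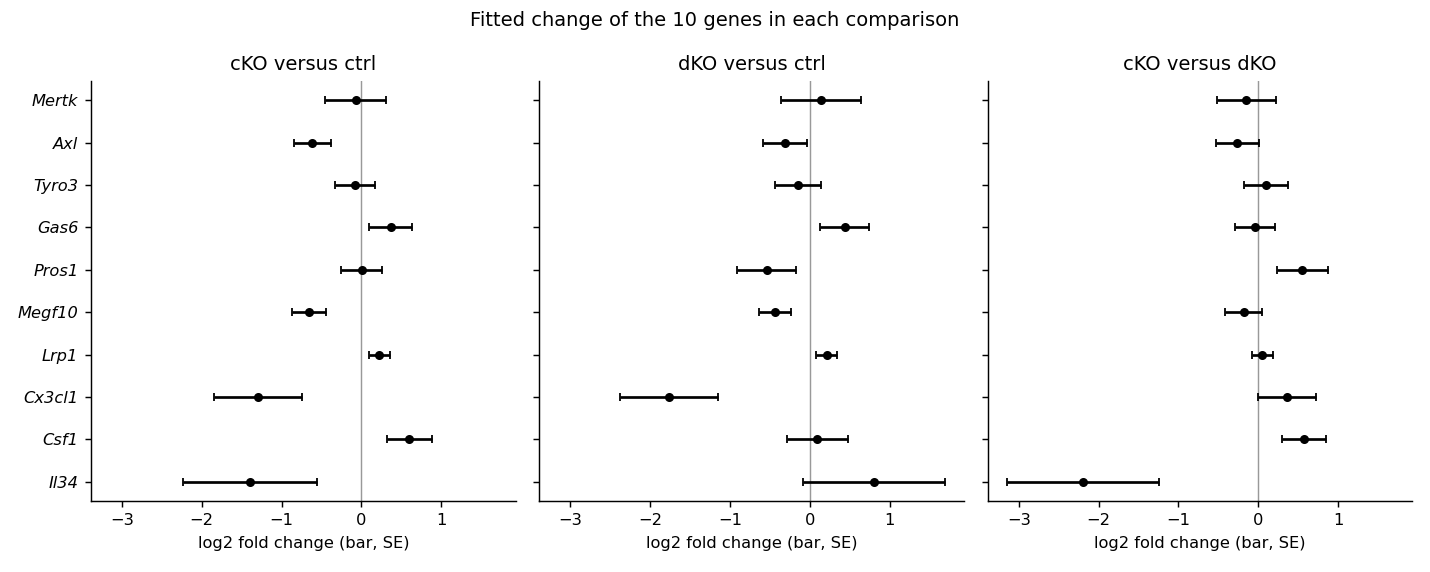
Fitted log2 fold change (horizontal axis) of each member in each of the 3 comparisons, with bars of 1 standard error. *Lrp1* has the narrowest bars, and *Il34* and *Cx3cl1* have the widest in the comparisons with ctrl.

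*Axl*, the TAM receptor of highest level, was at 5.04, 17.4, 21.7, 18.4, 28.0, 18.8 and 35.6 CPM in the ctrl mice. In the cKO mice it was at 10.8, 13.002, 10.5 and 17.1 CPM. In the dKO mice it was at 13.9, 11.4, 18.2 and 24.9 CPM. All cKO mice lay below 6 of the 7 ctrl mice, and ctrl mouse 2, with 3 counts, lay below them all. The log2 fold change was −0.61 in cKO versus ctrl (standard error 0.24, FDR 0.581), −0.31 in dKO versus ctrl (0.27, FDR of 1) and −0.26 in cKO versus dKO (0.27, FDR of 1). Mean levels in cKO and ctrl were 12.8 ± 3.05 and 20.7 ± 9.49 CPM. On log2(CPM + 1), where the low ctrl mouse 2 weighs more, the two-sided exact permutation test over mice gave p = 0.279. Leaving out a mouse gave a log2 fold change of −0.79 (without S2) to −0.48 (without T5) in cKO versus ctrl, with FDR of 0.0817 or more. Within batch 1 alone the log2 fold change in cKO versus ctrl was −0.16 (FDR of 1).

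*Mertk*, a TAM receptor abundant on macrophages, ranged from 0.543 to 13.3 CPM in ctrl with a median of 6.33. It was at 4.47, 6.00, 6.14 and 3.64 CPM in the cKO mice, and at 3.32, 4.85, 4.97 and 12.012 CPM in the dKO mice. The ctrl range enclosed every cKO and dKO mouse. The fitted log2 fold change was −0.07 (95% interval −0.82 to 0.68, from the standard error) in cKO versus ctrl and 0.14 (−0.85 to 1.12) in dKO versus ctrl. These intervals are wide, and smaller differences were not detectable for this gene at this depth.

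*Tyro3*, a TAM receptor of neural cells, ranged from 5.04 to 14.1 CPM in ctrl with a median of 9.34, and was at 11.2, 10.5, 6.36 and 12.1 CPM in the cKO mice and 10.6, 8.54, 6.63 and 12.012 CPM in the dKO mice. The groups overlapped throughout. By the fit, the log2 fold change was −0.08 (95% interval −0.58 to 0.41) in cKO versus ctrl and −0.15 (−0.71 to 0.41) in dKO versus ctrl.

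The bridging ligand gene *Gas6* was at 6.72, 11.7, 6.52, 8.20, 0, 7.53 and 8.89 CPM in the ctrl mice. In the cKO mice it was at 12.6, 8.75, 12.7 and 8.53 CPM, and in the dKO mice at 10.6, 12.4, 9.95 and 9.24 CPM. Every dKO mouse lay above all ctrl mice except mouse 6. The zero in T3 is a mouse of 399832 counts, in which 3 counts were worth 7.50 CPM, so its level cannot be told from that of the other ctrl mice. As a log2 fold change, the difference was 0.37 in cKO versus ctrl (standard error 0.27) and 0.44 in dKO versus ctrl (0.31), both at FDR of 1.

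*Pros1*, the other TAM ligand gene, ranged from 3.36 to 14.0 CPM in ctrl with a median of 7.17. It was at 8.13, 7.00, 9.09 and 6.48 CPM in the cKO mice and at 3.32, 7.37, 4.97 and 3.70 CPM in the dKO mice. The cKO mice lay within the ctrl range, and 3 of the 4 dKO mice lay below the cKO range. Its log2 fold change was 0.00 (standard error 0.26) in cKO versus ctrl, −0.54 (0.37) in dKO versus ctrl and 0.55 (0.32) in cKO versus dKO, all at FDR of 1. Leaving out a mouse gave −1.01 (without F7) to −0.33 (without F1) in dKO versus ctrl, and 0.29 (without F1) to 1.07 (without F7) in cKO versus dKO. For cKO versus dKO the exact permutation test gave p = 0.0857, where 4 mice against 4 allow no p below 0.0286.

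*Lrp1*, a receptor for calreticulin on apoptotic cells among many ligands, rested on 95 or more counts in every mouse and was the member measured with least error. It ranged from 222 to 334 CPM in ctrl with a median of 255. It was at 346, 350, 292 and 289 CPM in the cKO mice and at 312, 303, 312 and 321 CPM in the dKO mice. Every cKO and dKO mouse lay above 5 of the 7 ctrl mice, while ctrl mice 6 and S3 lay among them. The log2 fold change was 0.22 (95% interval −0.03 to 0.48) in cKO versus ctrl and 0.21 (−0.05 to 0.47) in dKO versus ctrl (FDR of 1 in both). The exact permutation tests gave p = 0.0697 and p = 0.0758. Between cKO and dKO the log2 fold change was 0.05 (−0.20 to 0.31).

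*Megf10* was at 53.8, 65.8, 88.0, 96.3, 63.0, 134.6 and 117.8 CPM in the ctrl mice. It was at 45.1, 44.8, 51.4 and 85.0 CPM in the cKO mice, and at 60.1, 49.9, 79.6 and 79.5 CPM in the dKO mice. Mice 5, 7 and F3 lay below every ctrl mouse, while S2 lay within the ctrl range, near its littermates S1 and S3. The fitted log2 fold change was −0.66 in cKO versus ctrl (standard error 0.21, FDR 0.349), −0.44 in dKO versus ctrl (0.20, FDR of 1) and −0.18 in cKO versus dKO (0.23, FDR of 1). The means in cKO and ctrl were 56.6 ± 19.2 and 88.5 ± 30.0 CPM (exact permutation test, p = 0.0697). Without cKO mouse S2 the log2 fold change was −0.93 (FDR 0.00177), and by edgeR's quasi-likelihood test on all mice it was −0.65 (FDR 0.000483). With litter as a covariate it was −0.31 (FDR of 1), and within batch 1 it was also −0.31 (FDR of 1).

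*Cx3cl1* was at 70.5, 7.91, 4.34, 9.73, 4.67, 2.82 and 22.2 CPM in the ctrl mice. It was at 8.53, 6.25, 8.18 and 4.32 CPM in the cKO mice and at 7.55, 5.82, 3.32 and 0.924 CPM in the dKO mice. Mouse 2 stood far above all others, with 42 counts of a total of 574401. By the fit, the log2 fold change was −1.30 in cKO versus ctrl (standard error 0.55, FDR 0.852) and −1.77 in dKO versus ctrl (0.61, FDR 0.916). Without mouse 2 these were −0.19 and −0.61. The exact permutation tests, which are on the log scale, gave p = 0.564 and p = 0.182. The fits that called cKO versus ctrl, both with mouse 2 included, were the quasi-likelihood test (FDR 0.0403) and the fit with litter as a covariate (FDR 0.000593).

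*Csf1* was at 3.36, 6.65, 6.52, 4.61, 2.33, 2.82 and 2.22 CPM in the ctrl mice. It was at 7.31, 7.75, 8.18 and 7.62 CPM in the cKO mice, and at 5.43, 5.04, 3.32 and 6.47 CPM in the dKO mice. Every cKO mouse lay above every ctrl mouse and every dKO mouse. Of the genes at 1 CPM or more, 0.845% lay wholly above ctrl in cKO and 2.55% wholly above dKO in cKO. No other member lay wholly apart in any comparison, for which the background was 0.356% below in cKO versus ctrl, 0.377% above and 0.286% below in dKO versus ctrl, and 1.26% below in cKO versus dKO. The mean was 7.72 ± 0.361 CPM in cKO (SD, n = 4), 4.07 ± 1.89 in ctrl (n = 7) and 5.07 ± 1.31 in dKO (n = 4).

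As a log2 fold change, the difference of *Csf1* was 0.60 in cKO versus ctrl (standard error 0.28, FDR 0.852), 0.57 in cKO versus dKO (0.27, FDR of 1) and 0.10 in dKO versus ctrl (0.38, FDR of 1). Two-sided exact permutation tests over mice gave p = 0.0121 for cKO versus ctrl and p = 0.0286 for cKO versus dKO, the smallest p that 4 mice against 4 allow. They were the only values below 0.05 among 30 such tests of the members, and neither is adjusted for that number. The tests exchange mice across litters and batches, so litter and depth are not separated from genotype in them. Ctrl mice T3, T4 and T5, of low *Csf1*, come from litter 3, which held no cKO mouse. Without TMM scaling the p of cKO versus dKO was 0.0571 and these groups overlapped. The ctrl levels rested on 3 counts or fewer in 4 of 7 mice, against 31 to 67 counts in cKO. Over the mice with at least 1000000 counts (4 ctrl, 4 cKO and 3 dKO), the log2 fold change was 0.48 in cKO versus ctrl and 0.52 in cKO versus dKO, both at FDR of 1. The cKO mice were higher within each litter that held them. The mean in litter 1 was 7.53 CPM in 2 cKO and 5.00 in 2 ctrl mice, in litter 2 it was 7.62 in 1 cKO and 5.56 in 2 ctrl mice, and in litter 4 it was 8.18 in 1 cKO and 5.24 in 2 dKO mice. In litter 3 both dKO mice lay above the 3 ctrl mice, with means of 4.89 and 2.46 CPM, a ratio of 1.99 that rests on 2 and 7 counts in the dKO mice and 1, 3 and 1 in the ctrl mice.

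*Il34* was barely detected. It had 10 counts over 7 ctrl mice, 8 over 4 cKO mice and 13 over 4 dKO mice, and no mouse had more than 5. It was at 0 in 3 ctrl mice and 1 cKO mouse. Its log2 fold change was −1.40 in cKO versus ctrl, 0.80 in dKO versus ctrl and −2.19 in cKO versus dKO (standard errors 0.84, 0.89 and 0.95, FDR of 1 in each), on no more than 5 reads a mouse. dKO mice T2 and T8 of litter 3 held 3 and 4 counts (4.97 and 3.70 CPM), and the 3 ctrl mice of that litter held 0, 1 and 0.

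**Figure D3:**
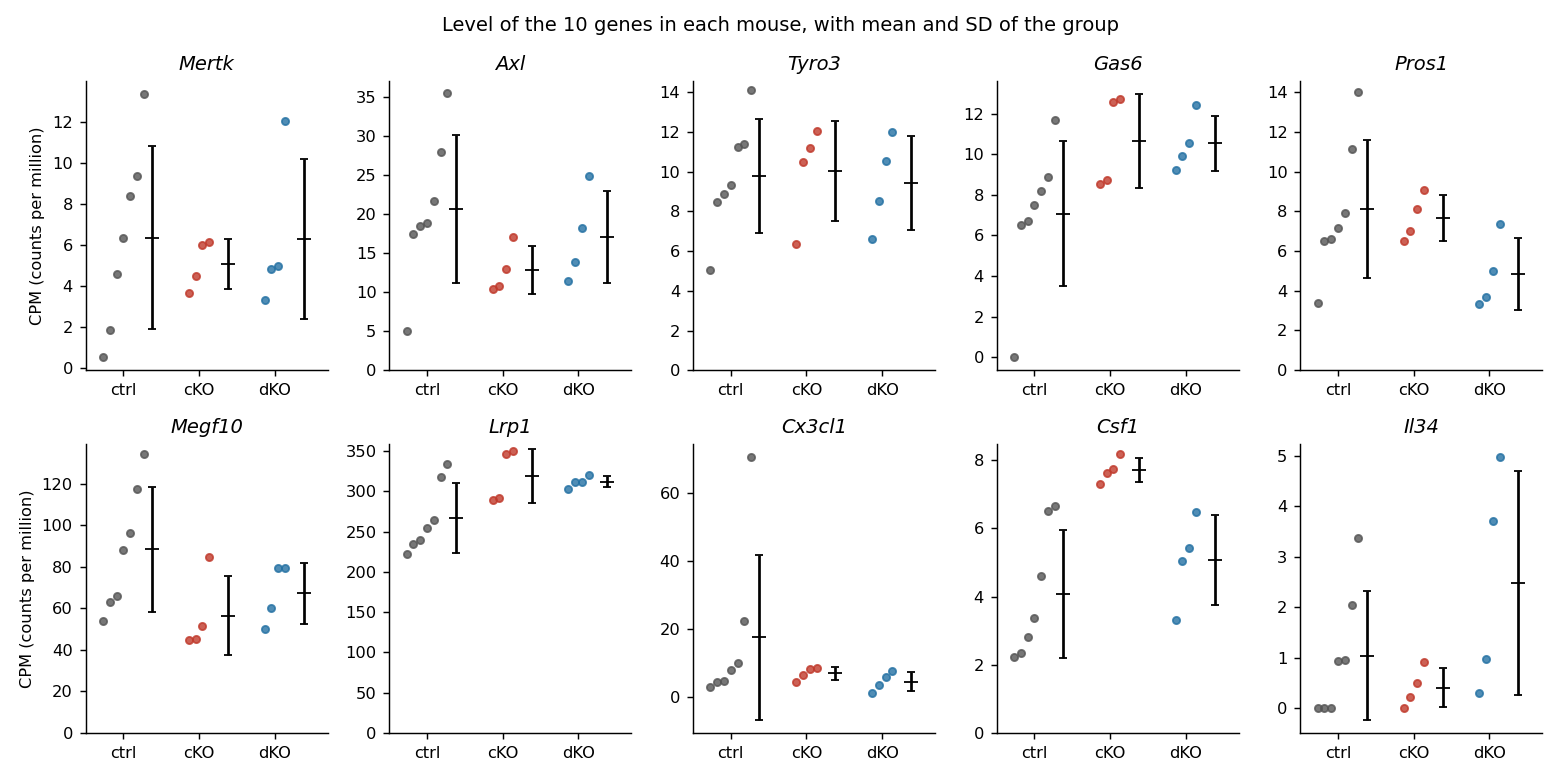
CPM (vertical axes, each from its own scale) of the 10 members in each of the 7 ctrl, 4 cKO and 4 dKO mice, with the mean and SD of each group beside the points. *Csf1* is the panel in which the cKO points, at 7.31 to 8.18 CPM, lie wholly above ctrl and dKO, and in *Megf10* the raised cKO point is S2 at 85.0 CPM.

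Other genes of the clearance pathway were taken from lists. Of 23 engulfment receptors, including the 5 members, 17 had a mean of at least 1 CPM. *Megf11* alone passed the test, being lower in cKO versus ctrl, where 0.16% of all genes passed. Of the 17, 11 had a negative log2 fold change in cKO versus ctrl, against 6387 of all 14328 genes at 1 CPM or more. *Megf11* is a paralog of *Megf10*. It was at 53.8, 66.5, 50.0, 65.0, 32.7, 52.7 and 64.5 CPM in the ctrl mice. It was at 39.6, 30.0, 33.0 and 42.7 CPM in the cKO mice, and at 36.2, 42.7, 59.7 and 48.0 CPM in the dKO mice. All cKO mice lay below every ctrl mouse except T3. Its log2 fold change was −0.65 in cKO versus ctrl (standard error 0.16, FDR 0.0408), a call lost in 8 of the 11 fits that left out a mouse, with FDR up to 0.524 without cKO mouse 7. In dKO versus ctrl it was −0.35 (FDR of 1). With litter as a covariate, the cKO versus ctrl change of *Megf11* was −0.67 (FDR 0.00874). The median log2 fold change of the receptors at 1 CPM or more was −0.11 in cKO versus ctrl, −0.15 in dKO versus ctrl and −0.15 in cKO versus dKO.

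Of 18 genes for find-me, eat-me and do-not-eat-me signals, *Xkr4* alone passed the test, in cKO versus ctrl. XKR4 is a scramblase that exposes phosphatidylserine in apoptotic cells after caspase cleavage. *Xkr4* ranged from 478 to 654 CPM in ctrl with a median of 519. It was at 1017, 885, 942 and 597 CPM in the cKO mice, and at 638, 873, 552 and 496 CPM in the dKO mice. Mice 5, 7 and F3 lay above every ctrl mouse, and S2 lay within the ctrl range. *Xkr4* rose in cKO versus ctrl by 0.60 on the log2 scale (standard error 0.14, FDR 0.0204). This call was lost in 6 of the 11 fits that left out a mouse, with FDR up to 0.375 without cKO mouse 5, and was lost with litter as a covariate (0.36, FDR 0.585). The log2 fold change was 0.20 in dKO versus ctrl and 0.44 in cKO versus dKO, both at FDR of 1.

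**Figure D4:**
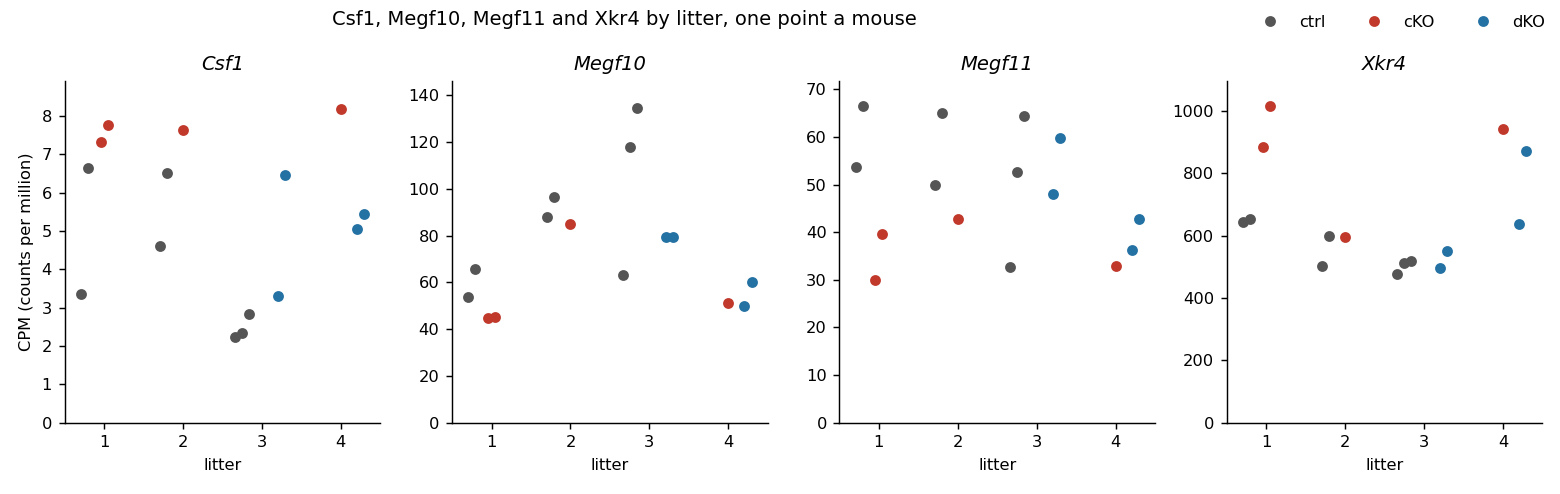
CPM (vertical axes from 0) of *Csf1*, *Megf10*, *Megf11* and *Xkr4* by litter (horizontal axes), with a point for each ctrl, cKO or dKO mouse. The cKO mice of litters 1 and 2 lie above their ctrl littermates in *Csf1* and below them in *Megf10* and *Megf11*, and for *Xkr4* the cKO mouse of litter 2 lies level with its ctrl littermates.

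The remaining pathway lists held no gene that passed the test. Of 12 bridging and opsonin genes, 8 reached 1 CPM, with a median log2 fold change of −0.07 in cKO versus ctrl and 0.09 in dKO versus ctrl. The smallest p in cKO versus ctrl was that of *C1qc*, a complement opsonin subunit, at 1.71 to 3.66 CPM in cKO and 0 to 5.04 in ctrl (FDR 0.459). Of 17 engulfment signaling genes, 16 reached 1 CPM, with a median of 0.10 and 0.08. The smallest p in cKO versus ctrl was that of *Elmo1*, which acts with DOCK proteins to activate RAC, at 339 ± 46.0 CPM in cKO and 258 ± 32.9 in ctrl (log2 fold change 0.37, FDR 0.356). Of 18 microglial growth and attraction signals, including the 3 members, 11 reached 1 CPM, with a median of −0.13 and −0.02. *Cxcl12*, a chemokine of meninges and progenitors, was at 7.25 ± 0.978 CPM in cKO and 10.3 ± 2.87 in ctrl (log2 fold change −0.53, FDR 0.852).

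Genes of smallest p in the other comparisons were *Anxa1*, a bridging gene without a count in ctrl and with 2 counts in dKO, all in T8, *Timd2*, a receptor without a count in cKO and with 4 counts in dKO, 2 each in F1 and T8, and *Vav3*, a RAC exchange factor at 68.3 CPM in dKO and 51.8 in ctrl (FDR 1, 0.547 and 1).

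Receptors of these signals were also examined. Of 11 receptor genes, 9 reached 1 CPM, with a median log2 fold change of 0.27 in cKO versus ctrl and 0.09 in dKO versus ctrl, and none passed the test. *Csf1r*, the receptor for CSF1 and IL34, is given for its role and was at 5.54 ± 4.18 CPM in ctrl, 5.48 ± 2.27 in cKO and 4.66 ± 1.44 in dKO. *Cx3cr1*, the receptor for CX3CL1, was at 3.68 ± 2.35, 6.98 ± 2.40 and 8.29 ± 3.22 CPM (log2 fold change 0.76 and 1.02 against ctrl, FDR 0.852 and 1). *Ptprz1*, a receptor for pleiotrophin and IL34, was at 751 CPM in cKO and 585 in dKO (log2 fold change 0.37, FDR 0.62). *Ackr3*, a scavenging receptor for CXCL12, was at 12.2 ± 4.41, 21.4 ± 4.11 and 20.9 ± 6.93 CPM (0.72 and 0.66 against ctrl, FDR 0.238 and 1).

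Microglia markers were measured beside these values. The list of 22 markers leaves out *Lcp2* and *Wdfy4*, which the paper names as microglial genes significantly raised in cKO. Of the 22, *Itgam* and *Irf8* had no count, 15 reached 1 CPM, and none passed the test. The median log2 fold change of the 15 was 0.58 in cKO versus ctrl, 0.22 in dKO versus ctrl and 0.25 in cKO versus dKO. In cKO versus ctrl 13 of the 15 had a positive log2 fold change, against 7941 of all 14328 genes at 1 CPM or more. The summed level of the 22 markers was 19.0 to 53.7 CPM in ctrl, 30.0 to 60.3 in cKO and 26.8 to 47.2 in dKO, so that the groups overlapped. In litter 1 it was 60.3 and 49.8 CPM in the cKO mice and 35.3 and 28.8 in the ctrl mice. In litter 2 it was 30.0 in cKO mouse S2 and 19.0 and 24.6 in the ctrl mice. Litter 3, without a cKO mouse, held the highest ctrl sums (53.7 in T3 and 48.9 in T5). Its dKO mice, at 33.2 (T2) and 26.8 (T8), lay below its ctrl mice. Mice T3, T5 and T2 were the shallowest of all, at 399832, 417440 and 552186 counts. They had counts for 9, 12 and 9 of the 22 markers, so their sums rest on few reads, and the order within litter 3 was not tested. In litter 4 the summed level was 44.5 in cKO mouse F3 and 38.3 and 47.2 in the dKO mice. Whether microglia had a part in the levels of the members was not tested.

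Of 17 phagocytic lysosome genes, 15 reached 1 CPM, with a median log2 fold change of 0.09 in cKO versus ctrl and −0.04 in dKO versus ctrl, and none passed the test. The smallest p in cKO versus ctrl was that of *Gpnmb*, a gene of phagocytic microglia. It had 10, 14, 16 and 2 counts in the cKO mice, 1 count in ctrl mouse S3 and none in the other 6 ctrl mice, and 1, 4, 1 and 0 counts in the dKO mice (FDR 0.0654 in cKO versus ctrl). In dKO versus ctrl it was that of *Cst3*, a secreted inhibitor of lysosomal proteases, at a mean of 9.50 and 23.3 CPM (log2 fold change −1.06, FDR of 1), where ctrl mouse T5 was at 82.2 CPM and the other 6 ctrl mice at 9.23 to 18.5. In cKO versus ctrl *Cst3* had a log2 fold change of −1.07 (FDR 0.602). In cKO versus dKO the smallest p was that of *Lamp2*, a lysosomal membrane gene at 50.2 and 36.8 CPM (FDR of 1). *Spp1*, *Laptm5*, *Adgre1* and *Aif1* were picked after their values were seen. *Spp1*, a further gene of phagocytic microglia, was at 4.47, 5.50, 2.27 and 0.569 CPM in the cKO mice and at 0 to 2.33 CPM in ctrl (FDR 0.348). *Laptm5*, a lysosomal membrane gene of blood lineages, was at 2.503 to 4.88 CPM in cKO, 2.77 to 3.32 in dKO and 0 to 1.88 in ctrl (FDR 0.124 in cKO versus ctrl and 1 in dKO versus ctrl). It had 3 counts or fewer in 6 of 7 ctrl mice and in 2 of 4 dKO mice. The microglia markers *Adgre1* and *Aif1* had negative fitted values with wide errors (FDR of 1 in each). The log2 fold changes were −0.44 and −0.18 in cKO versus ctrl (standard errors 0.55 and 0.81). In dKO versus ctrl they were −0.72 and −0.91 (standard errors 0.73 and 1.18). *Aif1* was at very low mean levels of 0.364 CPM in ctrl, 0.510 in cKO and 0.172 in dKO. Its mean was thus higher in cKO than in ctrl, although its fitted value was negative. As for *Megf10* and *Xkr4*, the cKO mouse nearest to ctrl in *Gpnmb* and *Spp1* was S2. S2 also lay outside the range of the other cKO mice, and nearer the ctrl mean than theirs, in *Axl*, *Gas6*, *Lrp1* and *Tyro3*. In *Tyro3*, at 12.1 CPM, it lay above both means (9.79 in ctrl and 9.35 in the other cKO mice). In *Mertk*, *Pros1*, *Cx3cl1* and *Megf11* it lay outside that range but not nearer the ctrl mean. In *Csf1* and *Il34* S2 lay within the range of the other cKO mice. Its summed microglia markers, at 30.0 CPM, were the lowest of the cKO mice. Its summed intermediate progenitor markers were at 174.7 CPM, against 93.4, 111.8 and 94.3 CPM in cKO mice 5, 7 and F3 and 166 to 230.0 in ctrl.

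**Figure D5:**
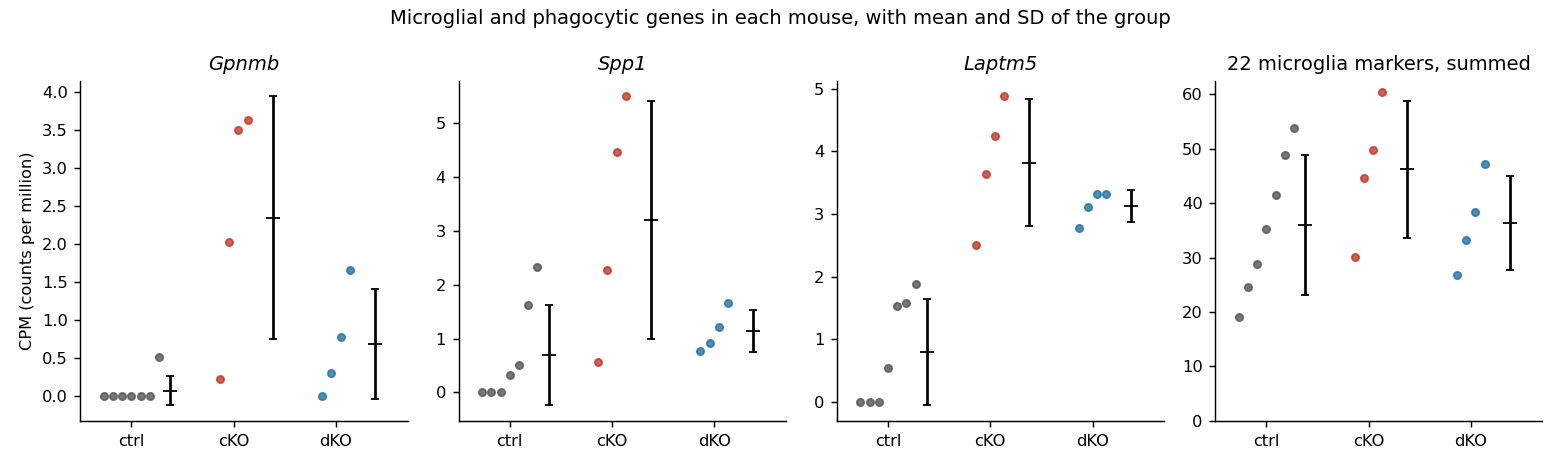
CPM (vertical axes) of *Gpnmb*, *Spp1* and *Laptm5* and the summed CPM of 22 microglia markers in each ctrl, cKO and dKO mouse, with the mean and SD of each group. The cKO and dKO points lie above ctrl in *Laptm5*, at 2.503 CPM or more against 1.88 or less, whereas the summed markers overlap between all groups. For *Laptm5*, 6 of 7 ctrl mice and 2 of 4 dKO mice had 3 counts or fewer.

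Markers of other cells moved between groups as well. Intermediate progenitor markers *Eomes* and *Neurog2* fell in cKO versus ctrl (log2 fold change −1.13 and −1.19, FDR 5.06e-06 and 0.00564), and interneuron markers *Erbb4* and *Gad1* rose (0.56 and 0.56, FDR 0.0361 and 0.0408). The meningeal marker *Aldh1a2* fell on few reads (FDR 0.0408), and the red blood cell marker *Hba-a2* rose in dKO versus ctrl (1.98, FDR 0.0203). No marker of radial glia, border macrophages, excitatory neurons, endothelial cells and pericytes or oligodendrocyte precursors passed a test. The smallest p of these lists belonged to *Hopx*, *Slc1a3* and *Ptprz1* (radial glia), *F13a1*, *Cd163* and *Lyve1* (border macrophages), *Bcl11b* and *Sox5* (excitatory neurons), *Cspg4* and *Esam* (endothelial cells and pericytes) and *Cspg4* and *Pdgfra* (oligodendrocyte precursors), with *Pdgfra* in cKO versus dKO at the lowest FDR of those not yet given (−0.82, FDR 0.505). In the lists with a called gene, the others of smallest p were *Lhx6* (0.26 in dKO versus ctrl, FDR of 1), *Foxc1* (0.75 in dKO versus ctrl, FDR of 1), *Col1a1* (−3.72 in cKO versus dKO, FDR 0.489), *Hbb-bt* (1.52 in cKO versus ctrl, FDR 0.864) and *Alas2* (−1.46 in cKO versus dKO, FDR 0.289). All 7 meningeal markers at 1 CPM or more had a negative log2 fold change in cKO versus ctrl, with a median of −1.65, against 6387 of all 14328 genes. Border macrophage marker sums were 4.45 to 58.4 CPM in ctrl, 5.23 to 14.8 in cKO and 8.29 to 39.7 in dKO, and *Cbr2* had no count. Their part in the levels of the members was not tested.

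For the 4 members with a mean of at least 10 CPM, the genes of most similar level over the 15 mice were sought among 9177 others, by Pearson's r of log2(CPM + 1). For *Axl* these were *Wee1*, *Ddx39* and *2610318N02Rik* (r of 0.919, 0.908 and 0.896). For *Megf10* they were *9430041J12Rik*, *Napepld* and *Baz1a* (0.915, 0.894 and 0.890). *Lrp1* was followed by *Agap3*, *Adgrb1*, itself an engulfment receptor gene, and *Apc2* (0.960, 0.875 and 0.875). *Cx3cl1* was followed by *Cox6a1*, *Hpcal4* and *Cd320* (0.921, 0.917 and 0.902), and without mice 2 and T8, the farthest from its median, these were 0.736, 0.805 and 0.782. Without the 2 farthest mice, r was 0.712 to 0.933 for *Axl*, 0.866 to 0.897 for *Megf10* and 0.794 to 0.929 for *Lrp1*. The points share libraries and depth, and the highest of many correlations are given as a description.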

How the data were processed

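RNA was extracted from micro-dissected E15.5 mouse cortices, depleted of ribosomal RNA and made into Click-seq libraries with UMIs by the authors. The authors used bcl2fastq 2.17, cutadapt 1.13, STAR 2.5.2a, UMI-tools 0.5.3 and HTSeq 0.6.1p1 (intersection-nonempty), per the labels and methods. The deposited values are whole-number counts of deduplicated reads per gene and library on GRCm38/mm10, not normalized. The annotation release, the strand setting and whether intron reads were counted are not given in the sources used here. Reads of overlapping antisense genes therefore cannot be told apart. The 5 summary lines of each table, 21.6 to 38.7% of its reads, were left out. Symbols, coordinates and exon lengths came from GENCODE M21, which matched 51719 of 51912 IDs. Upstream sequences were from RefSeq (GRCm38.p6).

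The 16 libraries came from 15 mice, and libraries S2 and S2b were added together as 1 mouse. They differed by close to sampling noise (chi-square per degree of freedom 1.14, against 3.56 to 27.4 for other cKO pairs). Each comparison was fitted on its 2 groups over all genes with edgeR 4.0.16 in R 4.3.3 (TMM, estimateDisp, glmFit, glmLRT, Benjamini–Hochberg FDR). The study's methods name edgeR, the likelihood ratio test and this FDR. The fit was tested on simulated data. Member levels were compared by two-sided exact permutation tests over mice on log2(CPM + 1), without regard to litter or batch. The alternatives were edgeR's quasi-likelihood test, DESeq2 1.42.0, RLE size factors, filterByExpr, batch or litter as a covariate, mice of 1 batch, wild-type ctrl mice only, either S2 library alone, leaving out each mouse, CPM without TMM and log2(CPM + 0.5). The fit on mice with at least 1000000 counts was chosen after seeing the data.

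The members and lists were chosen with earlier results of these data known. All 10 members are named, with list genes at FDR < 0.05, the gene of smallest p in each list and comparison, *Knl1*, *Trp53*, and the 3 genes most like each member of at least 10 CPM. *Csf1r*, *Spp1*, *Laptm5*, *Adgre1* and *Aif1* lie outside this rule or were picked after their values were seen. *Dlx6os1* has 2 IDs and was left out, and 1 other listed gene is not reported here. Protein sequences were not used here. Plots used matplotlib 3.10.9 under Python 3.11.15.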

Additional observations from a re-analysis of the deposited data

Results flagged for a closer look

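*Cx3cl1* in ctrl mouse 2, at 70.5 CPM, lay far above the other 6 ctrl mice, of which the next was T5 at 22.2 CPM. The gap was 0.713 of the whole range of the group. *Megf10* in cKO mouse S2, at 85.0 CPM, lay far above the other 3 cKO mice, of which the next was F3 at 51.4 CPM, a gap of 0.836 of the range. These were 2 of 30 groups of mice examined for a distant highest or lowest mouse (10 genes in 3 groups), and chance flags about 1 in 20 groups.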

How the results depend on the processing

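Of 573 alternative fits of the members, 515 kept the direction and the side of the threshold, 54 turned the direction without a call (lowest FDR 0.99) and 4 added a call, those of *Megf10* and *Cx3cl1* given above. The 83 genes called in cKO versus ctrl became 352 by the quasi-likelihood test, 144 by DESeq2, 138 with filterByExpr, 13 in batch 1 alone, 16 with wild-type ctrl mice and 52 with mice of at least 1000000 counts (chosen after seeing the data), and 17 to 373 when a mouse was left out. The 26 in dKO versus ctrl became 113, 3 and 14 by the first of these settings, 17 with batch, 4 with litter and 17 with wild-type ctrl mice, and 17 to 59 without a mouse. The 27 in cKO versus dKO became 184, 11 and 14, 3 with batch, 1 in batch 3 alone and 62 with mice of at least 1000000 counts, and 6 to 179 without a mouse. Without TMM, 1 rather than 2 of the 30 exact tests was below 0.05.

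In cKO versus ctrl the sign turned for *Mertk* with wild-type ctrl mice (0.0092) and with mice of at least 1000000 counts (0.41), for *Tyro3* with litter (0.015) and in batch 1 (0.13), for *Pros1* by DESeq2 (−0.035), RLE (−0.032), filterByExpr (−0.037), batch (−0.013) and library S2b alone (−0.0065), and for *Cx3cl1* with mice of at least 1000000 counts (0.026). In dKO versus ctrl it turned for *Mertk* with batch (−0.25) and in batch 3 (−0.28), for *Tyro3* with batch (0.13), with litter (0.18) and in batch 3 (0.11), for *Csf1* with wild-type ctrl mice (−0.061) and with mice of at least 1000000 counts (−0.016), and for *Megf11* with litter (0.070). In cKO versus dKO it turned with batch, with litter and in batch 3 for *Mertk* (0.15, 0.56 and 0.10), *Tyro3* (−0.57, −0.55 and −0.57), *Gas6* (0.22, 0.15 and 0.23) and *Lrp1* (−0.077, −0.060 and −0.077), for *Lrp1* by DESeq2 (−0.00075), RLE (−0.0031) and filterByExpr (−0.011), and for *Il34* with litter (0.41). Leaving out a mouse gave −0.33 to 0.14 for *Mertk*, −0.083 to 0.099 for *Pros1* and −0.20 to 0.065 for *Tyro3* in cKO versus ctrl, −0.31 to 0.39 for *Mertk* in dKO versus ctrl, and −0.14 to 0.084 for *Gas6*, −0.44 to 0.22 for *Mertk* and −0.042 to 0.26 for *Tyro3* in cKO versus dKO. The cause of these changes was not tested.

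Under filterByExpr no value was had for *Il34* in any comparison, or for *Mertk*, *Pros1*, *Cx3cl1* and *Csf1* in dKO versus ctrl, since these genes were removed. The replicate numbers are names of mice and pair none of them, while litter, which ties mice of different groups, was fitted as a covariate. Depth moved with genotype, and the shallow ctrl mice limit the genes of low level, above all *Il34*, *Csf1*, *Mertk* and *Pros1*. Batch 3 held all dKO mice, 3 ctrl mice and 1 cKO mouse, so that fits within a batch rest on few mice.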
